A study of Mus musculus with 2 samples.

Results

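The miR-135 genes of the mouse, Mir135b, Mir135a-1 and Mir135a-2, were followed in embryonic forebrain. They were chosen by name in the GENCODE annotation, with earlier results of these data known, and are 3 of the 1973 miRNA genes counted. The data came from 1 group, forebrain of healthy B6NCrl mouse embryos at embryonic day 12.5, male and female pooled, with no treatment or engineered allele named in the labels. Replicate 1 was a pool of 120 embryos and replicate 2 a pool of 68 embryos, and each gave 1 microRNA-seq library from RNA below 30 nt. The design therefore holds no contrast between conditions. The questions open to these files are how strongly each miR-135 gene was read, how the reads divided among the 3 genes, and how far the pools differed.

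MicroRNAs are short RNAs cut from hairpin precursors. They pair with messenger RNAs through a seed near their 5′ end and lower the output of those messengers. The miR-135 family is known for targeting Apc, a negative regulator of Wnt/β-catenin signalling, the pathway that helps to pattern the dorsal and posterior neural tube. Mir135a-2 lies in Rmst, a long non-coding RNA gene of the developing neural tube, and has been linked to Lmx1b and Wnt signalling in the midbrain. miR-135a is also known for acting on the serotonin transporter in the adult brain.

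The mature sequences are shown first, because what the 3 genes share decides which reads can be told apart. They are RefSeq sequences on GRCm38.p6, the same genome as mm10, written 5′ to 3′ with the seed (bases 2 to 8) in capitals. All 3 genes matched a hairpin in that table, at the same position and with the same sequence as in GENCODE M21.
miR-135a-5p, made by both Mir135a-1 and Mir135a-2: uAUGGCUUuuuauuccuauguga
miR-135a-1-3p, from Mir135a-1: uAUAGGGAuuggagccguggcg
miR-135a-2-3p, from Mir135a-2: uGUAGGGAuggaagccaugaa
miR-135b-3p, from Mir135b: aUGUAGGGcuaaaagccauggg
miR-135b-5p is named only and is outside the following counts. Among the 1679 mature names in the table, no other carried the seed of miR-135a-5p, and none shared a seed with any of the 3p arms. The 3p arms thus have 3 different seeds, whereas the 5p arm of both miR-135a genes is a single sequence.

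The 5p region separates Mir135b from the miR-135a genes. The first 30 bases from the start of that region, with bases 2 to 8 in capitals, show where the hairpins part.
Mir135b, chr1:132198103-132198132, plus strand: uAUGGCUUuucauuccuaugugauugcugc
Mir135a-1, chr9:106154140-106154169, plus strand: uAUGGCUUuuuauuccuaugugauucuauu
Mir135a-2, chr10:92072134-92072163, minus strand: uAUGGCUUuuuauuccuaugugaucguaau
Counted from 1 at the 5′ end of these stretches and read from Mir135a-1, Mir135a-2 is identical over 24 bases and first differs by U25C. Mir135b differs earlier, by U11C, so its hairpin matches miR-135a-5p at 22 of 23 bases. All 3 stretches hold the same bases 2 to 8.

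The 3p sides of the hairpins are less alike. The whole hairpins of Mir135b and Mir135a-2 are given with the stretch matching miR-135a-5p and the annotated 3p arm in capitals, to show both arms in place.
Mir135b, chr1:132198088-132198184, plus strand: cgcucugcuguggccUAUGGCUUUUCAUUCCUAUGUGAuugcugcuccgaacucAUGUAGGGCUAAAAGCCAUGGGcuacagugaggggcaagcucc
Mir135a-2, chr10:92072086-92072185, minus strand: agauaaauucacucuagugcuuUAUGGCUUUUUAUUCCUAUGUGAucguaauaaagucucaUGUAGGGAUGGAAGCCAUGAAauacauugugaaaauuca
In each of the 3 hairpins 16 bases lie between the 5p stretch and the 3p arm. The 22 bases of miR-135b-3p matched the Mir135a-2 hairpin at 17 bases at best and the Mir135a-1 hairpin at 15. The 22 bases of miR-135a-1-3p matched the Mir135a-2 hairpin at 15 bases at best. The hairpins also differ in base composition, with a GC content of 53.6% in Mir135b, 46.7% in Mir135a-1 and 33.0% in Mir135a-2. The minimum free energy that RNAfold computed followed the same order, at -48.7, -43.5 and -34.5 kcal/mol for hairpins of 97, 90 and 100 bases.

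**Figure D1:**
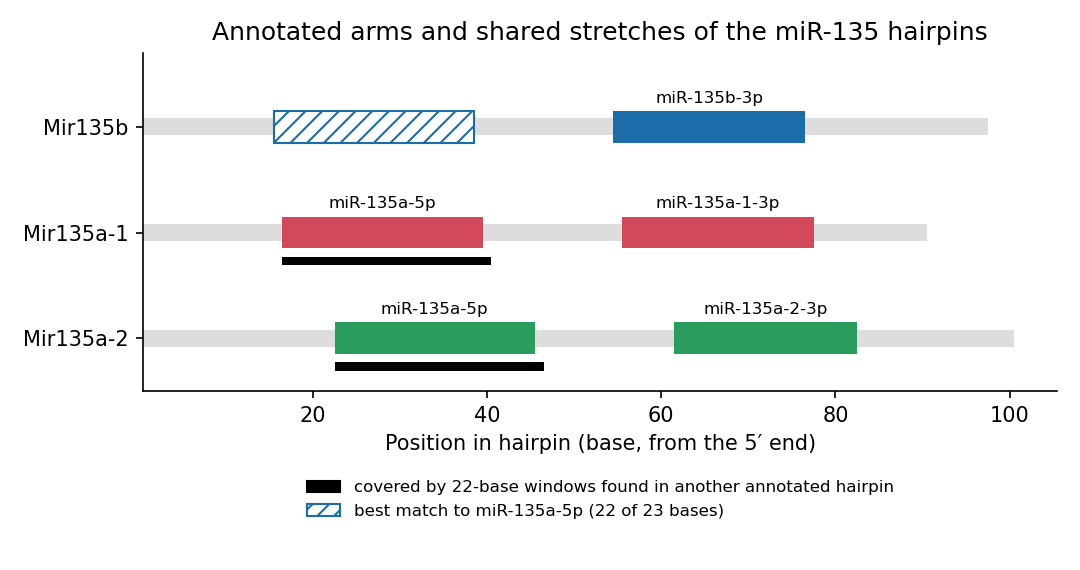
Position in each miR-135 hairpin in bases from its 5′ end (x axis), with grey bars for the hairpins, coloured blocks for the arms in the RefSeq table and a hatched block for the stretch of Mir135b that matches miR-135a-5p at 22 of 23 bases. Black lines mark bases covered by 22-base windows that occur in another annotated hairpin; they lie under miR-135a-5p in Mir135a-1 and Mir135a-2, and Mir135b has none.

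This sharing bears on the counts, because reads that matched several places were kept apart from the gene counts. Such reads numbered 4213961 in replicate 1 and 4224434 in replicate 2, against 4333194 and 4397107 counted for miRNA genes on the gene strand. Of the 69 windows of 22 bases in the Mir135a-1 hairpin, 3 also occur in another annotated miRNA hairpin, and of the 79 in Mir135a-2, 3 do. The longest run that the miR-135a hairpins share is 24 bases and holds all of miR-135a-5p. At 26 bases no window was shared. Of the 76 windows of 22 bases in Mir135b none occurs in another of the 2202 annotated miRNA hairpins, and its longest run shared with Mir135a-1 is 14 bases. A read equal to miR-135a-5p therefore matches both miR-135a genes, while the 3p arms and all of the Mir135b hairpin are distinct among annotated hairpins. The counts of Mir135a-1 and Mir135a-2 therefore leave out reads equal to miR-135a-5p, whose number is not known. How far the place of both genes below Mir135b depends on this was not tested. A genome sequence was not used here.

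In the annotation, each miR-135 gene stands alone rather than in a cluster. Mir135b (ENSMUSG00000065435.1) lies on chromosome 1 in an intron of Lemd1, a LEM-domain protein gene, on the same strand and 6657 bases from the start of the gene. No other counted miRNA gene lies within 100 kb of it. Mir135a-1 (ENSMUSG00000065407.1), on chromosome 9 between 106154124 and 106154213, is intronic to the non-coding gene D030055H07Rik on the same strand. On the opposite strand it falls inside the untranslated end of an exon of Glyctk, the glycerate kinase gene, in 2 of 5 annotated transcripts. Its neighbour is Mirlet7g, 24626 bases away in an intron of Wdr82. Mir135a-2 (ENSMUSG00000065524.1) lies on chromosome 10 in an intron of Rmst on the same strand, 92985 bases from the start of that gene. Mir1251, 64954 bases away, lies in another part of the Rmst gene, also intronic. No reads were counted on the strand opposite to any of the 3 genes in either library.

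By counted reads, Mir135b was by far the highest of the 3 genes. It had 35175 reads in replicate 1 and 31352 in replicate 2, or 8118 and 7130 counts per 1000000 assigned reads (CPM). Its mean was 7624 ± 698.2 CPM (SD, n = 2), which placed it at rank 29 of 1973 genes. Both pools held it at a high level, with replicate 1 the higher.

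Mir135a-1 came next. It had 1785 reads in replicate 1 and 1681 in replicate 2, or 411.9 and 382.3 CPM, with a mean of 397.1 ± 20.96 CPM (SD, n = 2) and rank 149. The exact 95% Poisson intervals, which cover counting error only, reached from 393 to 431.5 CPM in the first pool and from 364.2 to 401 CPM in the second, so they overlapped.

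Mir135a-2, the gene in Rmst, was the lowest. It had 760 reads in replicate 1 and 839 in replicate 2, or 175.4 and 190.8 CPM, with a mean of 183.1 ± 10.9 CPM (SD, n = 2) and rank 191. Its Poisson intervals, 163.1 to 188.3 CPM and 178.1 to 204.2 CPM, also overlapped between the pools. The floor for a gene without reads, at 3 counts, was 0.692 and 0.682 CPM in the respective libraries, so all 3 genes stood far above it.

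**Figure D2:**
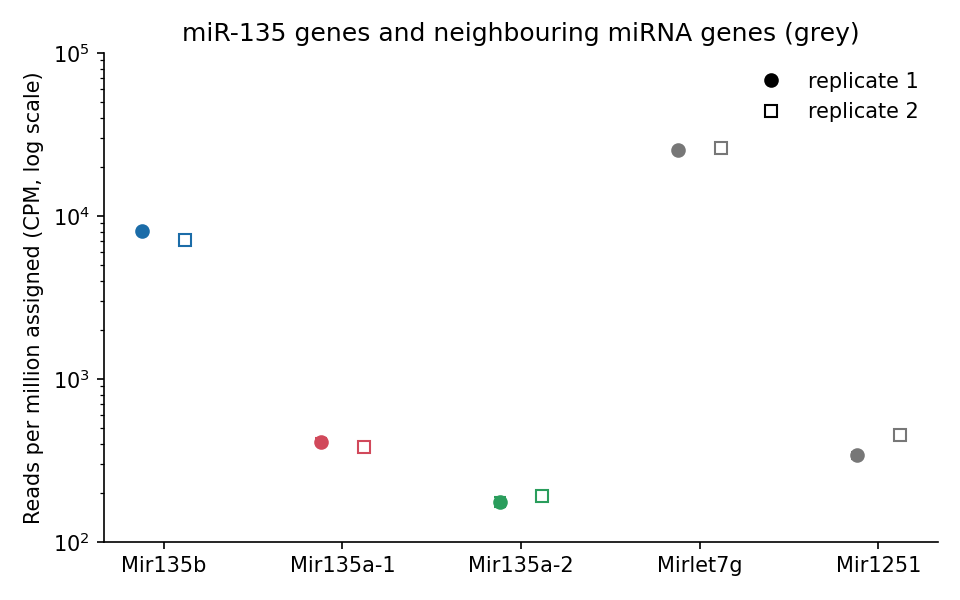
Level in CPM on a log scale (y axis) of the 3 miR-135 genes and of the neighbouring miRNA genes Mirlet7g and Mir1251 in grey, with a filled circle for replicate 1 and an open square for replicate 2; bars are exact 95% Poisson intervals, often smaller than the symbols. Mir135b sits at 8118 and 7130 CPM, above Mir135a-1 and Mir135a-2 in both pools.

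The order of the 3 genes was the same in both libraries and did not depend on hairpin length. Per kb of hairpin, Mir135b reached 78596 ± 7198 CPM per kb, Mir135a-1 reached 4412 ± 232.9 CPM per kb and Mir135a-2 reached 1831 ± 109 CPM per kb (SD, n = 2). On that scale the level of Mir135b was 18.3-fold that of Mir135a-1 in replicate 1 and 17.3-fold in replicate 2. Against Mir135a-2 it was 47.7-fold in replicate 1 and 38.5-fold in replicate 2. Mir135a-1 was 2.61-fold above Mir135a-2 in replicate 1, with an exact 95% interval for counting error of 2.4 to 2.84, and 2.23-fold in replicate 2, with 2.05 to 2.42. Reads equal to miR-135a-5p match both miR-135a genes and are in neither count, whereas no 22-base window of Mir135b occurs in another annotated hairpin. All of these folds therefore rest on the miR-135a reads that could be told apart. How far the folds depend on this was not tested.

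Together the genes took 8204 ± 708.3 CPM, or 0.820% ± 0.0708 of assigned reads (SD, n = 2). Of their counted reads, Mir135b held 93.3% in replicate 1 (exact Clopper-Pearson 95% interval 93.0 to 93.5) and 92.6% in replicate 2 (92.3 to 92.8). Mir135a-1 held 4.73% (4.52 to 4.95) and 4.96% (4.73 to 5.2). Mir135a-2 held 2.01% (1.88 to 2.16) and 2.48% (2.31 to 2.65). The intervals of Mir135b and of Mir135a-2 did not overlap between the pools, and those of Mir135a-1 did. These shares leave out reads that match both miR-135a genes, and the intervals do not cover that loss.

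**Figure D3:**
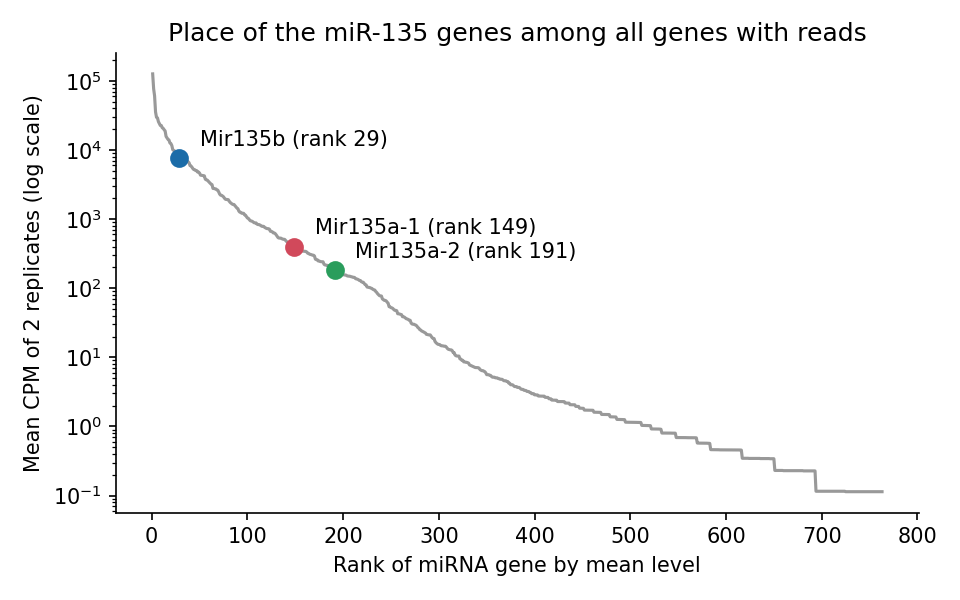
Mean level in CPM on a log scale (y axis) against rank (x axis) for all miRNA genes with reads, with the miR-135 genes as coloured points. Mir135b is at rank 29, Mir135a-1 at rank 149 and Mir135a-2 at rank 191.

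The genes nearest in level over both libraries, by distance in log2(CPM + 1), were Mir431, Mir23b and Mir30d for Mir135b, at distances of 0.04, 0.12 and 0.15. Mir431, of the imprinted Dlk1-Dio3 region, stood at 7873 and 7127 CPM. For Mir135a-1 they were Mir32, Mir503 and Mir1306, at 0.06, 0.16 and 0.19. For Mir135a-2 they were Mir412, Mir410 and Mir5099, at 0.08, 0.09 and 0.10. With 2 samples this likeness is a matter of level alone.

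Between the pools, Mir135b was lower in replicate 2, and no difference was called for Mir135a-1 or Mir135a-2. Its log2 ratio of replicate 2 to replicate 1, on the log2(CPM + 1) scale, was -0.19, with a Benjamini-Hochberg adjusted p of 7.7e-62 by two-sided Fisher's exact test. That test compares these libraries and not conditions, and covers counting error only. Of 511 genes tested, 167 were called, or 32.7%, so that 1 of 3 miR-135 genes was close to the background. Of the 511, 12.5% were lower and 20.2% higher in replicate 2, and 2.74% differed by at least 2-fold, which no miR-135 gene did. Among the 229 tested genes of at least 100 CPM, where all 3 miR-135 genes belong, 60.7% were called and 26.6% were lower. With edgeR's TMM scaling, 170 of the 511 genes were called and 90 of these were lower, 52.9% of calls against 38.3%.

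The ratio of Mir135a-1 was -0.11 with an adjusted p of 0.0789 by the same exact test, and that of Mir135a-2 was 0.12 with an adjusted p of 0.208. The call for Mir135a-1 depended on scaling, since its adjusted p by Fisher's exact test was 0.00777 with TMM, 0.0265 with DESeq2 size factors and 0.0245 with Mir99a taken out of the library size. Over 403 genes edgeR's common biological coefficient of variation was 16.6%, which corresponds to an SD of 0.34 for a log2 ratio of 2 libraries. Among the 229 genes of at least 100 CPM, 66 had a larger absolute ratio than Mir135b, 107 than Mir135a-2 and 116 than Mir135a-1.

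Whether the genes moved apart was tested on the reads of each pair, where library size cancels. These tests were chosen after the values were seen, and their p-values were adjusted over 5 pairs. The ratio of Mir135b lay below that of Mir135a-2 by a log2 difference of -0.31 (95% interval -0.45 to -0.16, adjusted p = 0.00013, Fisher's exact test). The ratio of Mir135a-1 also lay below that of Mir135a-2, by -0.23 (-0.40 to -0.06, adjusted p = 0.012, Fisher's exact test). For Mir135b against Mir135a-1 the difference was -0.08 (-0.18 to 0.02, adjusted p = 0.12, Fisher's exact test). These intervals, too, cover counting error only, and all of these differences were below the SD of 0.34 given above. That SD, however, describes the log2 ratio of a single gene over 403 genes, not a difference of 2 ratios. Ratios also spread less among the 229 genes of at least 100 CPM, with quartiles of -0.09 and 0.12. Over all 511 tested genes the quartiles were -0.15 and 0.26. The spread of such differences between pools was not estimated.

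**Figure D4:**
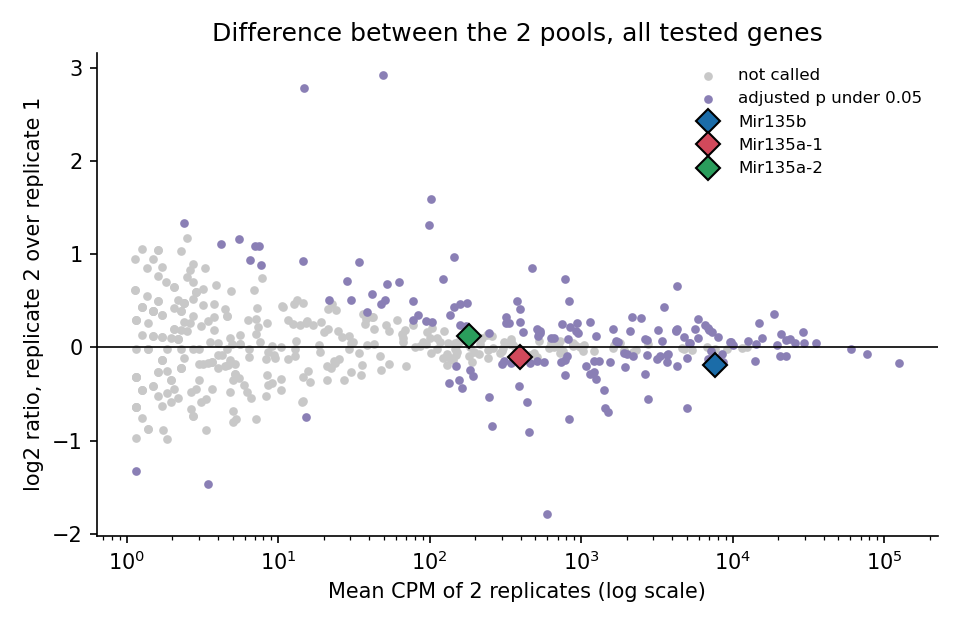
log2 ratio of replicate 2 to replicate 1 (y axis) against mean CPM on a log scale (x axis) for 511 tested miRNA genes, purple where the adjusted p was under 0.05 by Fisher's exact test, with the miR-135 genes as diamonds. The diamonds lie at -0.19 for Mir135b, -0.11 for Mir135a-1 and 0.12 for Mir135a-2, with 27 of the 229 genes of at least 100 CPM below Mir135b.

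The miRNA genes nearest on the chromosome were counted at other levels. Mirlet7g, a let-7 gene known for limiting proliferation, stood at 25296 and 26084 CPM, and per kb of hairpin it was 62.8-fold above Mir135a-1 in replicate 1 and 69.8-fold above it in replicate 2. Mir1251, which like Mir135a-2 lies in the Rmst gene, had 1473 and 1996 reads, or 339.9 and 453.9 CPM. Of 14 annotated Rmst transcripts, 2 span Mir135a-2 and 6 span Mir1251. Per kb of hairpin, Mir1251 was 2.31-fold above Mir135a-2 in replicate 1 and 2.83-fold above it in replicate 2. Its log2 ratio of 0.42 was called (adjusted p = 2.3e-16, Fisher's exact test), and Mir135a-2 was lower than Mir1251 in that ratio by a log2 difference of -0.30 (-0.47 to -0.12, adjusted p = 0.002, Fisher's exact test). For Mir135a-1 against Mirlet7g the log2 difference was -0.15 (-0.25 to -0.05, adjusted p = 0.0036, Fisher's exact test). The counts of Mir135a-1 and Mir135a-2 leave out reads equal to miR-135a-5p. How far these folds and differences depend on that, or on the transcripts that span each gene, was not tested.

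Beside other miRNA genes reported to act on Wnt signalling, Mir135b was the highest. The list held 19 genes, the miR-135 genes included, and all 19 were tested. Per kb of hairpin the other 18 were below Mir135b, 10 were below Mir135a-1 and 7 were below Mir135a-2. Mir429 of the miR-200 family came second at 60533 CPM per kb, followed by Mir203, a miRNA of surface epithelium, at 28400 CPM per kb. Mir27b stood at 11047 CPM per kb and Mir34c at 8014 CPM per kb. Without the miR-135 genes, 7 of the 16 other genes were lower in replicate 2 and 2 were higher by Fisher's exact test, beside 12.5% lower and 20.2% higher over all 511 genes tested. Their median log2 ratio was -0.19, against 0.04 over the 511 genes. Among the 229 tested genes of at least 100 CPM, 60.7% were called and 26.6% were lower. All 7 lower genes belong to these 229, but not all of the 16 do. With TMM scaling 9 of the 16 were lower and 2 higher. The 7 lower without it include 5 miR-200 genes, such as Mir200a with 3986 and 1170 reads.

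**Figure D5:**
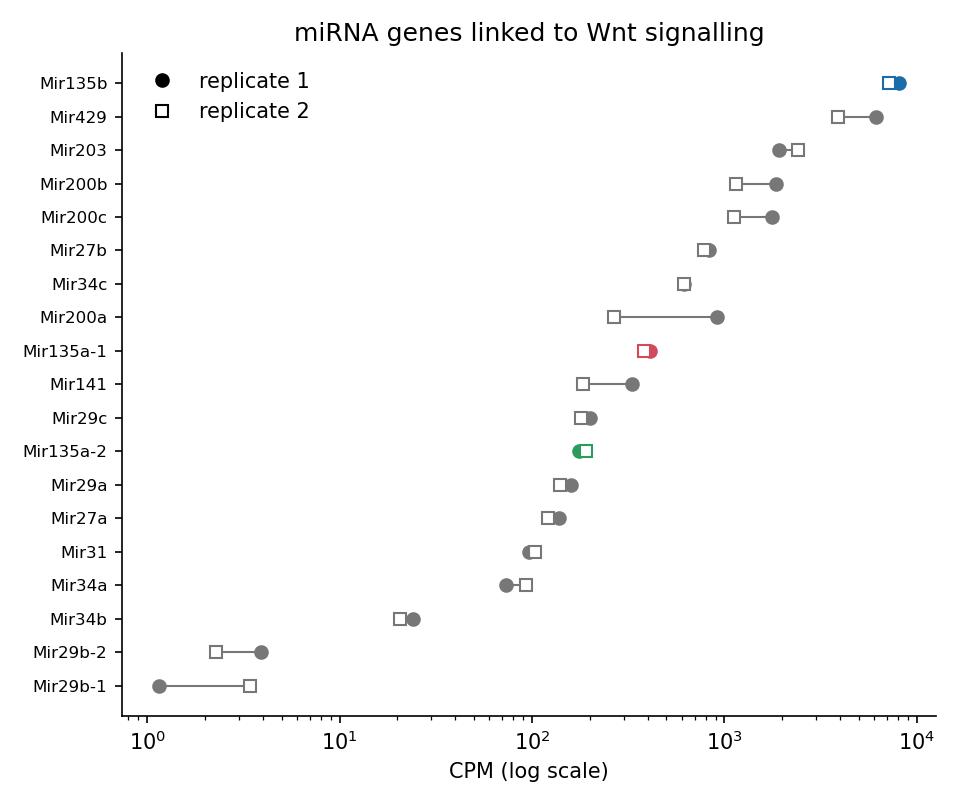
Level in CPM on a log scale (x axis) of 19 miRNA genes reported to act on Wnt signalling (y axis), with a filled circle for replicate 1, an open square for replicate 2 and a line joining them. The miR-135 genes, in colour, have short lines, while the miR-200 genes reach further, with Mir200a at 919.9 and 266.1 CPM.

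Both libraries carried neural miRNAs, and also miRNAs typical of other tissues that a dissection can hold. Of 24 genes in the neural list 21 were analysed, led per kb by Mir92b, Mir137, Mir153 and Mir7b, and 20 of the 21 were below Mir135b and 15 below Mir135a-1. The neural markers of the miR-124 genes were near the floor, with 6 to 31 reads each, and they too have identical copies. The 6 Hox cluster miRNA genes, active in the hindbrain and trunk, summed to 188.5 and 176.0 CPM, below Mir135a-1 in each library. Mir135a-2, at 175.4 and 190.8 CPM, was below that sum in replicate 1 and above it in replicate 2. The summed epithelial markers reached 13628 CPM in the first pool and 10008 CPM in the second, with 5 of 7 lower and 2 higher in replicate 2 and none at 0. Over all 511 genes tested, 12.5% were lower and 20.2% higher, and among the 229 of at least 100 CPM, to which these 7 belong, 26.6% were lower. Of the 6 eye and sensory markers, 3 were lower and 2 higher, with summed levels of 5713 and 5176 CPM and none at 0. Of the 21 neural genes, 3 were lower, Mir153 at a log2 ratio of -0.55, Mir7b at -0.33 and Mir132 at -0.24, and 6 were higher, or 3 with TMM scaling. With TMM the counts of the epithelial, sensory and mesenchymal lists were the same. Mir135b was lower in replicate 2, as were some members of the epithelial, sensory and neural lists, and their part in its difference was not tested. These lists and the Wnt list are not all separate, since the 5 lower epithelial genes are the miR-200 genes of the Wnt list. Each of the 3 lists also held genes that were higher. Mesenchymal and mural markers summed to 12983 and 15695 CPM, with 5 of 6 higher in replicate 2 beside the 20.2% of all genes, and the endothelial Mir126a stood at 16564 and 21180 CPM. In bulk tissue, more cells of a type and more RNA per cell cannot be told apart.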

How the data were processed

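The files hold raw read counts per miRNA gene, deposited by the authors for each library without normalization. Genome mm10 and annotation M4 are named in the notes deposited with the files. Which aligner and counter were used is not given in the sources used here, nor is the trimming. The column used was the gene strand, read from the values. The 4 rows that name no gene were left out of library sizes; they held 17.5% and 16.8% of reads as unmapped, 37.9% in both as matching several places and 5.49% and 5.93% as in no feature, with 0 ambiguous.

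The members, lists and tests were chosen with earlier results of these data known. CPM used gene-strand reads. Genes with at least 10 reads over both libraries were compared by two-sided Fisher's exact test with Benjamini-Hochberg adjustment at 0.05. A check beforehand used data simulated with counting error only, so it does not cover the spread between pools. Log ratios used a pseudocount of 1 CPM. Named genes were the members, counted miRNA genes within 100 kb, the 3 nearest in level, the 4 highest neural genes and list members. Gene positions came from GENCODE M21, also mm10, which matched 1894 of 1973 genes. Versions were edgeR 4.0.16, DESeq2 1.42.0, R 4.3.3, Python 3.11.15, SciPy 1.17.1 and RNAfold 2.7.2. Alternatives covered strand, scaling, pseudocount, read minimum, hairpin length, neighbour distance and each replicate left out. TMM scaling of the list counts was added after seeing the data. The labels name separate pools, each with 1 library, so p-values can reflect dissection or library preparation.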

Additional observations from a re-analysis of the deposited data

Results flagged for a closer look

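Reads that matched several places lie outside the gene counts and were picked out because they exceed what a count of 0 allows, as any such total does. They numbered 4213961 in replicate 1 and 4224434 in replicate 2, or 112 and 125 for each read counted for a miR-135 gene. How many of them came from miR-135a-5p, which Mir135a-1 and Mir135a-2 share, was not tested.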

How the results depend on the processing

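No paired analysis was possible because the series holds 1 group. Of 58 alternatives over 11 results, 45 kept the direction and side of the threshold, or moved a value by less than the SD of the replicates or a count by less than 1.5 times. Part of these 45 could not have come out otherwise. With 2 replicates, leaving either out always moves a mean by less than their SD. Shares with both strands together were unchanged because no opposite-strand reads were counted for these genes. With Mir99a out of the library size, mean levels were 8731 CPM for Mir135b, 454.7 CPM for Mir135a-1 and 209.5 CPM for Mir135a-2, by construction. Per kb of hairpin they were 78596, 4412 and 1831 CPM per kb. Per base of hairpin Mir135a-1 held 5.21% of the miR-135 reads in place of 4.85%. The log2 ratio of Mir135a-1 passed the threshold with TMM at -0.15, with DESeq2 size factors at -0.13 and with Mir99a out at -0.13, where the cause was not tested beyond the scaling itself. A 2-fold minimum cut the count of differing genes from 167 to 14, and no miR-135 gene was among these. Within 10 kb the miR-135 genes had 0 neighbouring miRNA genes with counts, within 100 kb 2 and within 1000 kb 4. Leaving out a replicate gave 7130 to 8118 CPM for Mir135b, 382.3 to 411.9 CPM for Mir135a-1 and 175.4 to 190.8 CPM for Mir135a-2, and shares of 92.6% to 93.3%, 4.73% to 4.96% and 2.01% to 2.48%. Depth does not limit detection of these genes; 2 libraries limit what can be said of their spread.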

Other observations

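Other neural miRNAs whose mature guide comes from several loci were counted at widely differing levels. Of 18 genes of this kind 15 were analysed, and per kb of hairpin all 15 were below Mir135b and 13 below Mir135a-1. Mir219a-1 led them at 880.6 ± 10.65 CPM (SD, n = 2), followed by Mir9-3 at 713.5 ± 0.551 CPM, Mir138-1 at 340.3 ± 5.71 CPM and Mir128-1 at 247.4 ± 18.98 CPM. The counted reads of the copies were often unequal: Mir9-3 had 3090 and 3139 reads, whereas Mir9-2 had 23 and 26. Reads that match several copies lie outside these counts. The counts therefore need not give the level of a miRNA or the part of each copy in it. The list was chosen with earlier results of these data known.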
